A study of Canis lupus familiaris with 109 samples.

Results

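Libraries of dog blood DNA whose code ends in A1, A3 or A4 are described here against the other libraries of the same code form. In the main table of methylation fractions, each row carries a library code such as L3_A1, made of a prefix (L1 to L9) and a second element. The 16 libraries with the second element A1, A3 or A4 were set against the 68 libraries with any other second element, out of 95 libraries in all. The 11 libraries with SCE_CF_Pilot codes were left out of the contrast. The code group was chosen from these same fractions, because their first principal component followed the second element of the code. All differences between the code groups are therefore descriptions, with no test, and none of them is independent evidence that the groups differ.

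The samples were whole blood of domestic dogs, measured by capture of selected genome regions and bisulfite sequencing. Age runs from 0.134 to 14.5 years over the 94 samples that the labels place in the main tables. The main table holds 95 libraries, so this range need not cover all of them. DNA came from a kit or from phenol chloroform extraction, and which of these a library had is not given in the sources used here. The labels give no treatment and no genotype. Library codes match none of the sample titles or descriptions, so no library here has an age, a sex or a dog, and what the letters and numbers of a code stand for is not given in the sources used here. The files give fractions without read counts, so the depth behind each value is unknown.

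DNA methylation in mammals is found mostly at cytosines followed by guanine (CpG sites), where a methyl group on promoters and enhancers usually goes with a silent state. Dense clusters of CpGs are mostly kept unmethylated, isolated CpGs are mostly methylated, and regulatory elements outside the clusters often hold intermediate levels that differ between cell types. Whole blood is a mixture of granulocytes, lymphocytes and monocytes, each with its own methylation pattern. In such a mixture, a change in the share of a cell type and a change within cells cannot be told apart.

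The 16 libraries were spread over all 9 prefixes. A1 occurred in L3, L4, L5 and L6. A3 occurred in L1, L2, L3, L4, L7 and L8. A4 occurred in L1, L2, L5, L7, L8 and L9. Each prefix thus held 1 or 2 of the 16 libraries beside 6 to 9 others, and every prefix offered a comparison within itself.

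The first principal component of the 84 libraries held 8.41% of the variance, and the second held 3.35%. On the first component the 16 libraries had a lowest score of -8.69, a median of 22.3 and a highest score of 32.2. The other 68 ran from -12.1 to 12.4 with a median of -4.80. Of the 16 libraries, 12 scored above every one of the 68 others. The 4 that did not were L2_A3 (8.81), L3_A3 (3.6), L2_A4 (-3.04) and L8_A4 (-8.69), and their scores lay inside the range of the others. The contrast by code is thus not clean, and each summary of the 16 libraries below includes these 4. With the fractions as deposited, before values of 1.0 at mostly unmethylated positions were set to 0.01, only 7 of the 16 scored above all 68 others.

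Among the 24 second elements, A4, A1 and A3 had the highest median scores, at 26.5, 23.9 and 16.5. The 4 A1 libraries lay close together, from 22.03 to 27.3. The 6 A3 libraries spread from 3.6 to 22.5, and the 6 A4 libraries from -8.69 to 32.2. Next in order was A23, with a median of 8.69 over 3 libraries, the highest of which scored 10.6, below 12 of the 16. The A7 libraries followed at a median of 3.95 and the A10 libraries at 1.86. The highest score among the 68 others, 12.4, belonged to an A10 library, L8_A10. Codes next to the 3 in number had lower medians, with A2 at -6.54 over 2 libraries and A5 at -8.00 over 5. Their ranges, from -10.3 to -2.76 and from -9.93 to -2.71, each held the scores of L2_A4 and L8_A4. The order of the remaining codes rests on 2 to 5 libraries each with overlapping ranges.

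**Figure D1:**
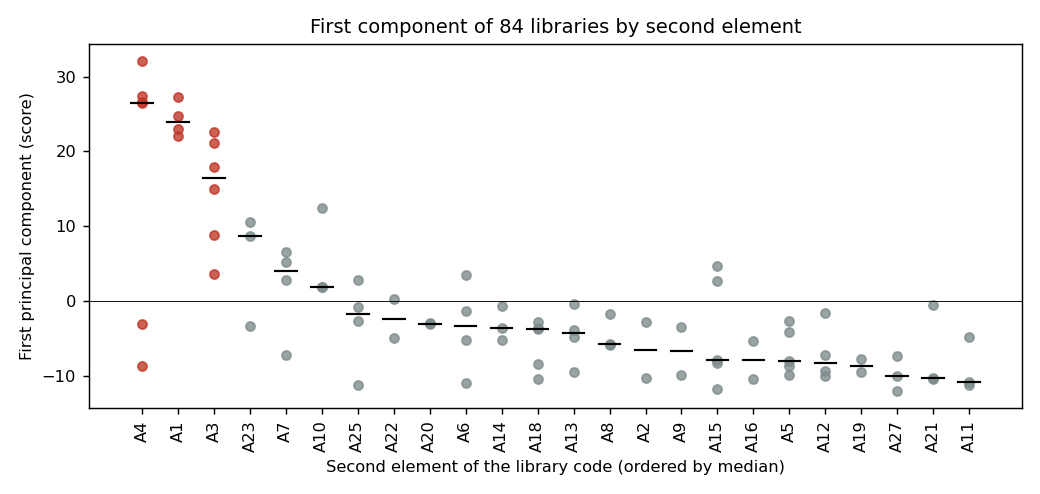
First principal component score of each of the 84 L-coded libraries (y axis, no unit) by the second element of its code (x axis, ordered by median). Points are libraries, black lines medians, red A1, A3 and A4. Of the 16 red points, 12 lie above the highest grey point at 12.4, and 2 A4 points lie at -3.04 and -8.69.

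The overall level of methylation was nearly the same in both code groups. The mean fraction per library had a lowest value of 0.378, a median of 0.383 and a highest value of 0.388 in the 16, against 0.369, 0.382 and 0.388 in the other 68. The medians differed by 0.00199, and all 16 lay within the range of the others. At the 153855 positions with a median fraction under 0.1, the library mean had a median of 0.0128 in the 16 and 0.0132 in the others. At the 99651 positions with a median over 0.8 it was 0.918 against 0.916. At the 50685 positions between these classes it was 0.458 against 0.4504, and L7_A4, at 0.479, was the only one of the 16 above all others. The groups overlapped in each class.

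Single positions moved in both directions. A position was called higher or lower when the median fraction of the 16 libraries differed from that of the 68 others by at least 0.1. By this rule 8846 of 304191 positions, or 2.91%, were higher in the A1, A3 and A4 libraries and 6273, or 2.06%, were lower. The median difference over all positions was 0. The called higher positions had a median level of 0.53 in the 16 and 0.33 in the others, and the called lower positions 0.415 and 0.6. Differences of 0.2 or more were found at 2590 higher and 1371 lower positions, and of 0.3 or more at 708 and 465. At no position did the 16 libraries and the 68 others separate without overlap.

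The called positions were also compared within each prefix, in the same libraries whose medians made the calls. The difference had the same sign in all 9 prefixes at 3810 of the higher positions (43.1%) and at 2148 of the lower positions (34.2%). It had the same sign in at least 7 prefixes at 94.6% and 92.1%. Over all positions, 1.81% were higher in every prefix and 1.19% were lower in every prefix, and 10.4% were higher and 8.41% lower in at least 7. The size differed between prefixes. At the called higher positions the difference of prefix medians was 0.0495 in L2, 0.105 in L8 and 0.135 in L3, and between 0.166 and 0.214 in the other 6 prefixes. At the called lower positions it was -0.0451 in L2, -0.0858 in L8 and between -0.13 and -0.213 elsewhere. L2 and L8 are the prefixes that hold L2_A3, L2_A4 and L8_A4.

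The 16 libraries can be followed one by one over the called positions. The mean fraction at the called higher positions ran from 0.336 to 0.615 with a median of 0.544 in the 16, and from 0.305 to 0.488 with a median of 0.358 in the 68 others. The highest were L7_A4 at 0.615, L1_A4 at 0.594 and L3_A1 at 0.577, and the lowest was L8_A4 at 0.336. At the called lower positions the 16 ran from 0.364 to 0.558 with a median of 0.394, and the others from 0.512 to 0.629 with a median of 0.573. L9_A4 was lowest at 0.364. All but L2_A4 (0.550) and L8_A4 (0.558) lay below every other library here, so that L2_A3 and L3_A3 stood apart at the lower positions and not at the higher ones.

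**Figure D2:**
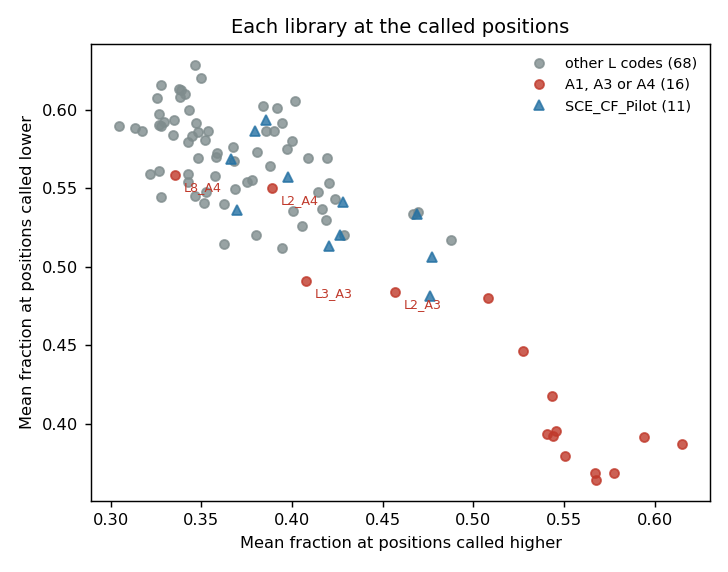
Mean methylation fraction of each library at the 8846 positions called higher (x axis) and at the 6273 positions called lower (y axis). Red points are the 16 A1, A3 and A4 libraries, grey points the other 68 and blue triangles the 11 SCE_CF_Pilot libraries. The SCE_CF_Pilot libraries were not in the group medians that made the calls. Of the red points, 12 lie to the right of every grey point.

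The 11 SCE_CF_Pilot libraries took no part in choosing these positions, and their medians lay between those of the code groups. At the called higher positions they ran from 0.367 to 0.477 with a median of 0.420. At the called lower positions they ran from 0.482 to 0.593 with a median of 0.536. Their ranges overlapped with those of both code groups. At the called higher positions their range lay inside that of the other L-coded libraries, 0.305 to 0.488. At the called lower positions it reached below the lowest of those libraries, at 0.512. The positions were chosen for a gap between the medians of the code groups. A left-out median that falls within this gap is therefore not independent evidence.

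Called positions were concentrated at intermediate levels. Of the positions with a median between 0.1 and 0.8, 15.9% were called higher and 9.92% lower. Of those under 0.1, 0.418% were higher and 0.0227% lower, and of those over 0.8, 0.146% and 1.22%. A position near 0 can move little downward and one near 1 little upward. The 2 directions also differed in local density, counted as listed positions within 100 bp, itself included. Among positions with 1 to 3 listed positions, 5.71% were higher and 2.54% lower. Among those with 11 to 31, the order was the other way, at 0.649% higher and 1.17% lower. In the densest class, with 32 to 88, only 17 of 9888 positions (0.172%) were higher and 22 (0.222%) lower. Density and level were not separated in these shares.

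**Figure D3:**
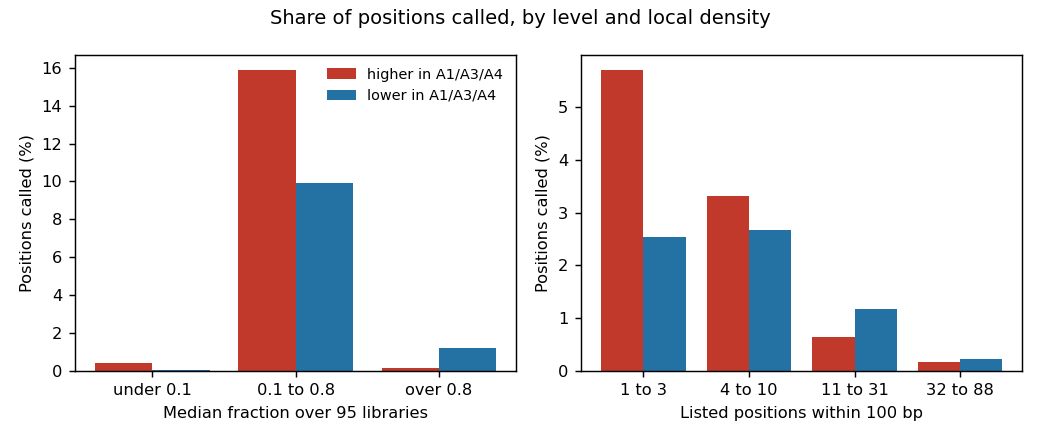
Percent of positions called higher (red) or lower (blue) in the A1, A3 and A4 libraries, by the median fraction over 95 libraries (left) and by the number of listed positions within 100 bp (right). The left peak is 15.9% at levels of 0.1 to 0.8, and on the right the red share exceeds the blue one at sparse positions and falls below it from 11 positions on.

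Called positions were found on all 38 autosomes. The share called higher was greatest on chromosome 38, at 5.12% of 2323 positions, and smallest on chromosome 35, at 1.96% of 4890. The share called lower ran from 1.24% of 5479 positions on chromosome 13 to 3.56% of 3034 positions on chromosome 36.

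Neighbouring positions moved together. Among pairs of positions 2 to 50 bp apart with both medians between 0.1 and 0.8, 72.9% of the 2893 called higher at the first position were also called higher at the second, and 0.277% were called lower. The share of all 18132 such pairs with a second position called higher was 15.5%. For the lower calls the corresponding values were 59.6% of 2406, against 13.2%. Pairs 1 bp apart read the opposite strands of a CpG, and here 80.4% of 769 higher calls and 65.6% of 326 lower calls were shared, against 18.3% and 7.73% over all 4166 pairs. Across these pairs the difference between code groups correlated with r = 0.908, as a description of sites measured in the same libraries.

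To follow the difference over stretches of DNA, runs of at least 10 listed positions with gaps of up to 100 bp were taken as regions, and the mean fraction over a region was its level in a library. Of 7274 regions, 74 (1.02%) were higher in the A1, A3 and A4 libraries by at least 0.1 and 69 (0.949%) were lower. Regions just inside the boundary differed by 0.101 and -0.1, and those just outside by 0.0996 and -0.099. Of the 74 higher regions, 46 had the same sign in all 9 prefixes, and of the 69 lower regions 38 did. Over all 7274 regions, whatever the size of the difference, 218 (3%) were higher and 328 (4.51%) lower in every prefix. In no region did the code groups separate without overlap. Such regions hold dense positions, and 48.4% of all positions lay in them, but only 28% of the positions between 0.1 and 0.8. Of the called positions, 16.2% of the higher and 33.2% of the lower ones lay in regions.

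The regions named below are the 10 with the greatest difference in each direction among those with the same sign in every prefix. They are given by position on CanFam3.1, using the first coordinate listed for each position. No annotation on that build was used here, so the genes at these positions are not named. None of the 20 regions held a variant-like position, meaning one where some libraries lie near 0, some near 1 and others midway. Only 292 of all 304191 positions were of this kind, so their absence here says little about these regions.

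The greatest gain was in a region of 16 positions at chr26:5330973-5331232. The 16 libraries ran from 0.258 to 0.929 with a median of 0.888, and the 68 others from 0.121 to 0.791 with a median of 0.412. Of the 16, 12 lay above all others, while L8_A4 (0.258), L2_A4 (0.458), L2_A3 (0.651) and L3_A3 (0.746) did not. The 12 high libraries lay between 0.832 and 0.929. All 16 positions of the region were called higher, with differences from 0.34 to 0.62. The SCE_CF_Pilot libraries ran from 0.412 to 0.867 here, with a median of 0.626.

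A short region of 10 positions at chr2:11044022-11044080 came next. Its level ran from 0.293 to 0.861 with a median of 0.733 in the 16, and from 0.204 to 0.604 with a median of 0.38 in the others. Here 11 libraries lay above all others, and L7_A3, at 0.453, fell back among the others with L2_A3, L2_A4, L3_A3 and L8_A4. A single code thus did not fix the level, since A3 libraries ran from 0.318 in L3_A3 to 0.763 in L1_A3.

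A pair of regions on chromosome 18 was mostly unmethylated in the other libraries. At chr18:47631833-47632117, with 23 positions, the 16 libraries ran from 0.0587 to 0.554 with a median of 0.383, and the others from 0.0183 to 0.305 with a median of 0.0609. Of the 16, 10 lay above all others. All 23 positions were called. The neighbouring region at chr18:47631532-47631723, with 13 positions, had medians of 0.278 and 0.0392, but 1 of the other libraries reached 0.389, above all 16. Together they form a stretch that was near 0 in most of the 68 libraries and partly methylated in most of the 16.

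The other higher regions showed smaller or less even gains. A region of 10 positions at chr38:743196-743290 had medians of 0.411 and 0.148 in the 16 and in the others, with 10 of the 16 above all others. A region of 15 positions at chr5:57753854-57753924 had medians of 0.413 and 0.163, with 11 above all others. A region of 23 positions at chr9:372357-372624 had medians of 0.484 and 0.257, with 8 above all others. It had the most even difference over prefixes, from 0.123 to 0.283.

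In 3 higher regions the code groups were strongly mixed. At chr5:78455022-78455134, with 14 positions, the medians were 0.845 and 0.516, but the others reached 0.936, and 7 of them exceeded the median of the 16. The codes differed within this region, with medians of 0.67 for A1, 0.859 for A3 and 0.815 for A4. L4_A1 and L3_A1 were the lowest of the 16 here, although both scored above all 68 others on the first component. At chr20:55977407-55977587, with 18 positions, the medians were 0.369 and 0.133, with 1 of the 16 above all others. At chr20:39387714-39387782, with 10 positions, they were 0.621 and 0.405, with none above all others.

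The greatest loss was in a region of 13 positions at chr9:24868760-24869054. The 16 libraries ran from 0.298 to 0.818 with a median of 0.42, and the others from 0.55 to 0.957 with a median of 0.838. Of the 16, 11 lay below all others, and L8_A4 (0.818) and L2_A4 (0.788) were highest.

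A region of 20 positions at chr22:1780062-1780449 was highly methylated in the other libraries, which ran from 0.806 to 0.948 with a median of 0.905. The 16 libraries ran from 0.323 to 0.884 with a median of 0.493. Their levels left a gap, with L2_A3, L2_A4, L3_A3, L7_A3 and L8_A4 between 0.823 and 0.884 and the other 11 between 0.323 and 0.636. The loss was not even along the region. At 8 of its 20 positions, which lie from -158.5 to 9.5 bp from the centre in coordinate order, the 16 libraries had a median fraction under 0.3 while the others had a median over 0.7. At -126.5 bp the medians were 0.065 and 0.715. At 163.5 bp they were 0.925 and 1.

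**Figure D4:**
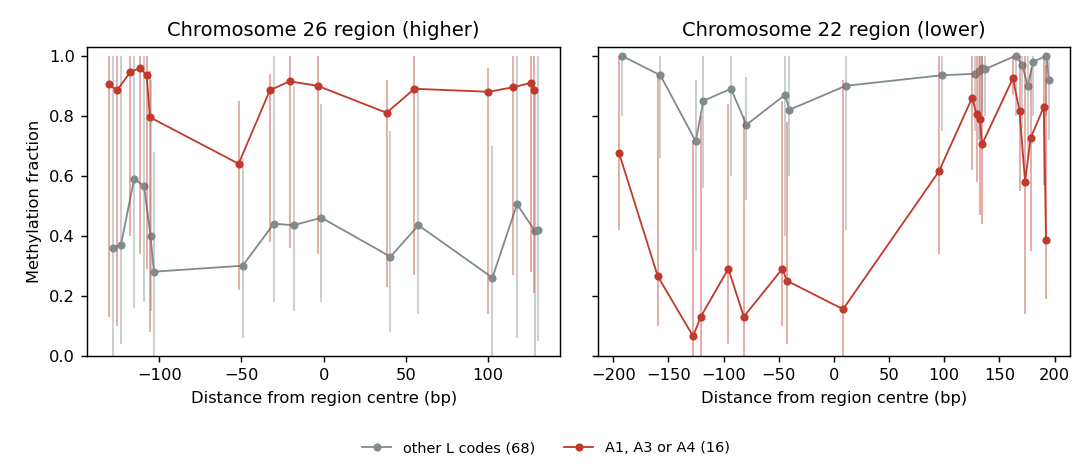
Methylation fraction at each listed position of the chromosome 26 region (left) and the chromosome 22 region (right), against distance from the region's centre in bp. Points joined by lines are medians and vertical lines run from lowest to highest library, red for the 16 A1, A3 and A4 libraries and grey for the 68 others, drawn slightly apart sideways. On the left the red median is higher at all 16 positions, and on the right the red median is under 0.3 at 8 positions before and near the centre.

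Other losses were found in regions with middle or low levels. A region of 13 positions at chr17:21238388-21238559 had medians of 0.296 in the 16 and 0.547 in the others, with 11 of the 16 below all others. A region of 19 positions at chr3:58818772-58819002, all called, had medians of 0.178 and 0.408, with 10 below all others. A region of 16 positions at chr11:41260517-41260834, also all called, had medians of 0.289 and 0.511, with 8 below all others. A region of 18 positions at chr2:36046607-36046873 had medians of 0.263 and 0.470, with 13 below all others.

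A region of 53 positions at chr10:47400050-47400603 was the longest named, at 554 bp. The 16 libraries ran from 0.0606 to 0.267 with a median of 0.0856, and the others from 0.137 to 0.368 with a median of 0.267. Of the 16, 11 lay below all others, with L1_A3 lowest. L2_A4 (0.267) and L8_A4 (0.244) were highest, at levels common among the others.

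The remaining lower regions are given briefly. A region of 17 positions at chr20:53720512-53720670 had medians of 0.674 and 0.897, with 13 of the 16 below all others. A region of 34 positions at chr30:26783415-26783838 had medians of 0.506 and 0.692, with 4 below all others. A region of 13 positions at chr1:113810821-113810977 had medians of 0.189 and 0.367, with 7 below all others.

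**Figure D5:**
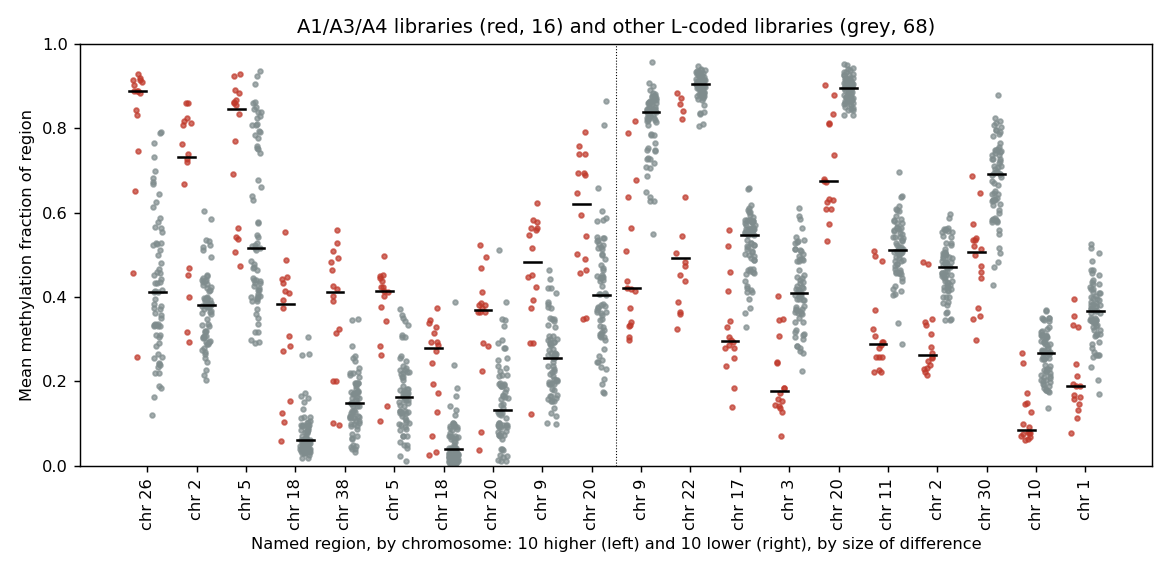
Mean methylation fraction (y axis) of the 20 named regions (x axis, by chromosome, with the 10 higher regions on the left and the 10 lower on the right, by size of difference). Points are libraries, red for the 16 A1, A3 and A4 libraries and grey for the 68 others, and black lines are medians. In every region at least 1 red point lies within the range of the grey points, as do 5 in the chromosome 22 region.

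The 16 libraries differed in how many of the named regions set them apart. L1_A4 lay beyond all 68 others in 17 of the 20 regions, in the direction of the difference. L3_A1 did so in 15, and L1_A3, L5_A1, L6_A1 and L9_A4 in 14 each. L4_A1, L5_A4, L7_A4 and L8_A3 did so in 13 each, L4_A3 in 9 and L7_A3 in 6. L3_A3 did so in 4, L2_A3 in 3, and L2_A4 and L8_A4 in 0. L2_A3 lay beyond the median of the others in all 20 regions and L3_A3 in 17, whereas L2_A4 did so in 14 and L8_A4 in 9. The regions were chosen for the same sign in every prefix, where 1 or 2 of the 16 libraries set the prefix median. High counts, as for L2_A3 beside L2_A4 or for L6_A1 and L9_A4 alone, thus follow in part from that choice. Of the 68 other libraries, 53 lay beyond the median of the 16 in none of the 20 regions, and L8_A10 did so in 3. The regions were also chosen for the greatest differences of group medians, so the counts of the 16 and of the 68 follow in part from that ranking.

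In a second table the same libraries are given at human array probes, on a rescaled scale. Since it comes from the same libraries, it lends no independent support. By the same rule 979 of 54469 probes (1.8%) were higher in the 16 and 920 (1.69%) lower. The greatest difference upward was at probe cg02601475, with a median of 0.764 in the 16 and 0.29 in the others, and 10 of the 16 above all others. It was followed by cg17286985, with medians of 0.524 and 0.0951, where the others reached 0.873 and 2 of the 16 exceeded them. The greatest difference downward was at cg22877452, with medians of 0.282 and 0.842 and 12 of the 16 below all others. At cg26585452 the medians were 0.288 and 0.768, and 11 of the 16 lay below all others. The files do not pair these probes with genes.

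Measures other than the difference of medians are given beside these differences. The share of fractions written with more than 2 decimals, whose origin is not given in the sources used here, had a median of 0.0306% and a highest value of 2.02% (L7_A4) in the 16, and a median of 0.0243% and a highest value of 22.4% in the others. The number of values of 1.0 at positions with a median under 0.05 ran from 50 in L7_A4 to 16312 in L4_A3, or 0.0351% to 11.5% of these positions, within the range of the others, 0.00562% to 15.8%. Setting these values of 1.0 to 0.01 was part of the contrast, so this measure is not separate from it. Neither measure set the 16 apart. Their part in the differences was not tested beyond the settings given at the end.

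Libraries were also compared at the 292 variant-like positions of the main table. A base difference that removes a CpG from one or both chromosome copies gives such levels. Pairs within the 16 correlated at these positions with a median r of 0.209 over 120 pairs, from 0.0179 to 0.639. Pairs within the 68 others had a median r of 0.118 over 2278 pairs, and pairs between the groups 0.0881 over 1088. Of the 16 libraries, 14 had a higher median r with the rest of the 16 than with the 68 others, and L4_A3 (0.138 against 0.161) and L8_A4 (0.12 against 0.138) did not. The highest values within the 16 were 0.639 for L3_A1 with L4_A1 and 0.617 for L5_A4 with L9_A4. The highest value was 0.586 within the 68 others and 0.5904 between the groups, for L2_A3 with L2_A20. Some of the 16, such as L2_A3 and L5_A1, were closest to a library outside the 16, and some, such as L3_A1, to one within. The pairs share libraries, and the code group was chosen from fractions that include these positions. A higher r within the 16 is therefore not independent evidence of likeness, and the values are given as a description. Of the 292 positions, 84 (28.8%) were called higher and 97 (33.2%) lower, against 2.91% and 2.06% of all positions. Among positions with a median between 0.1 and 0.8, the shares were 15.9% and 9.92%. By their definition the 292 positions spread from near 0 to near 1, where group medians differ readily. The shares therefore cannot tell whether these positions and the contrast are linked. The part of sequence differences in the contrast was not tested.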

How the data were processed

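The authors deposited methylation fractions per cytosine position and library (304191 positions, 95 libraries) and rescaled fractions at human array probes, without read counts. Tools listed in the submitters' processing notes are Bowtie2 2.1.0, Bismark 0.14.3 and Trim Galore, whose roles are not stated, and the build listed is CanFam3.1. Filtering and the filling in of missing values are not given in the sources used here.

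In the main table, a fraction of 1.0 (tolerance 1e-06) was replaced by 0.01 wherever the position's median over all 95 libraries was below 0.05. Code groups were compared by the difference of their medians at each position, region and probe, with a call at 0.1. No statistical test was run, because the libraries are tied to no label and the contrast was chosen on these values. The contrast and all measures were chosen with earlier results of these data known. Named regions were the 10 greatest differences in each direction with the same sign in every prefix, and named probes the 2 greatest in each direction. Whether coordinates count from 0 or 1 was not settled, which leaves 1 bp of uncertainty. The repeat-capture table was not used, since it holds no L-coded library. The principal component came from a singular value decomposition of fractions centred by position. Variant-like positions had at least 8 libraries each under 0.12, over 0.88 and from 0.3 to 0.7, and at most 12 elsewhere. The script that makes the calls was tried on simulated fractions with known differences. Alternatives covered the setting of 1.0, cells with more than 2 decimals, means, the call boundary, prefixes, codes and libraries. Python 3.11.15, NumPy 2.4.6 and Matplotlib 3.10.9 were used.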

Additional observations from a re-analysis of the deposited data

How the results depend on the processing

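Of 60 alternative values, 49 stayed within 1.5 times the count, or within the spread of library means, and 11 did not. That spread, 0.003565, exceeds the difference in library means itself, 0.001989. For this measure even no difference at all would have counted as staying, so its part of the 49 shows little. With a minimum difference of 0.05 in place of 0.1, 21368 positions were higher and 17446 lower, 149 regions higher and 246 lower, and 3163 probes higher and 3003 lower. With 0.2 there were 2590 and 1371 positions, and 16 and 9 regions. These follow from the boundary itself, and at 0.05 more regions were lower than higher, against 74 higher and 69 lower at 0.1. With values as deposited, 7 of the 16 libraries in place of 12 lay above all others on the first component, while 8857 positions were higher and 6276 lower, of which 8838 and 6273 were shared with the counts above. With prefix medians taken out, 11 libraries lay above all others, and 7061 positions were higher and 4622 lower. Without the A1, A3 or A4 libraries in turn, higher positions numbered 8387, 9758 and 9499, and lower positions 5512, 7804 and 6806. With variant-like positions left out, a setting chosen after seeing the data, there were 8762 and 6176. Leaving out 292 positions could not have moved these counts by 1.5 times. No paired analysis was possible because the results come from no test and no library is tied to a numbered sample, and the differences within prefixes stand in the report. Read depth is unknown, so its effect on these values could not be examined.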
